A study of Mus musculus with 6 samples.

Results

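The genes described here encode 9 calcium-binding proteins of neurons, Calb1, Calb2, Pvalb, Ncald, Hpca, Hpcal1, Hpcal4, Vsnl1 and Ncs1, and they were chosen by symbol from the 24060 genes of the table. All 9 were present and had enough reads to be tested. Their transcripts were measured by RNA-seq in retinal ganglion cells (RGCs), the neurons whose axons form the optic nerve, of C57BL/6 mice. The E18 group held 3 samples of embryonic RGCs (replicates 1, 3 and 4), and the P5 group held 3 samples of early postnatal RGCs (replicates 6, 8 and 9). In both groups retinas were dissociated with papain, macrophages were removed with antibodies, and RGCs were held on dishes coated with antibody against CD90, the surface protein encoded by Thy1 (immunopanning). No genotype other than the strain and no treatment is given for either age, and the labels do not say how many animals a sample pools or whether the samples came from separate litters. The p-values therefore measure the spread between these samples, which may be technical in part. The study compared the ages because embryonic RGCs extend axons readily and postnatal RGCs do so poorly.

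Calcium ions enter neurons through channels during activity and are bound within the cell by proteins that carry EF-hands, short loops that hold a calcium ion. Calbindin (Calb1), calretinin (Calb2) and parvalbumin (Pvalb) are cytosolic buffers, which soak up calcium and so shape the size and the duration of a calcium signal. The other members are neuronal calcium sensors, most of which carry a myristoyl group that lets them bind membranes when calcium rises and act on kinases, cyclases, receptors or endocytic proteins there. In the retina calretinin and parvalbumin are found in RGCs and amacrine cells, and calbindin is a classical marker of horizontal cells that also occurs in some amacrine cells and RGCs.

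The counts on genes summed to 81213639 to 114512853 per sample. The 12 RGC markers summed to 7747 to 9602 CPM (counts scaled to a common library size) in the samples, without a common direction between the ages (4 higher and 3 lower at P5). Tubb3 and Nefl made up most of the sum in each sample, so it says little about the other RGC markers. Of all genes tested, 22.5% were higher and 20.8% lower at P5, and these shares stand beside the count of each marker list here and below. Genes of dividing and progenitor cells (9 genes) summed to 404, 154 and 26.4 CPM in E18 replicates 1, 3 and 4 and to 12.8 to 29.5 CPM at P5. Markers of photoreceptors summed to 4.17 to 12.9 CPM and those of microglia to 1.59 to 2.93 CPM. Bipolar markers (7 genes, 5 tested, 3 higher and 1 lower at P5) summed to 53.2 to 70.6 CPM at E18 and at least 84.2 CPM in each P5 sample, the same direction as most of the calcium-binding genes. Prkca, which made up most of this sum, is not restricted to bipolar cells, and the defining markers Vsx1 and Grm6 had 0 to 5 reads in each sample. Müller glia and astrocyte markers summed to 404 to 448 CPM at E18 and 273 to 326 CPM at P5. Of the 8 tested, 0 were higher and 2 lower, Glul and Vim, which made up most of the sum. Gfap had 4 to 11 reads and Aqp4 22 to 46 reads in each sample. Other genes of the list had more, with 127 to 374 reads of Rlbp1, 267 to 630 of Apoe, 45 to 225 of S100b and 142 to 320 of Aldh1l1. Slc1a3 differed among the E18 samples, with 1345, 314 and 43 reads in E18 replicates 1, 3 and 4 and 109 to 158 reads at P5. Endothelial and pericyte markers summed to 72.2, 64.4 and 16.3 CPM in E18 replicates 1, 3 and 4 and 14.5 to 17.6 CPM at P5. Kdr, the 1 gene of that list called lower, held 69.5, 62.9 and 14.1 CPM of the E18 sums. Of the 6 tested genes of that list, 3 were higher at P5, namely Pecam1 (3.51-fold), Tek (3.48-fold) and Rgs5 (20.6-fold). All 3 were low, with means of 0.686 and 2.41 CPM (Pecam1), 0.83 and 2.88 CPM (Tek) and 0.112 and 2.33 CPM (Rgs5) at E18 and P5. Cldn5 (2 to 18 reads in each sample) and Pdgfrb (6 to 63 reads) were not called. Cdh5 (0 to 6 reads) and Vwf (1 to 19 reads) had too few reads to be tested. The part of any of these cells in the results was not tested. In bulk RNA, fewer cells of a type and less RNA per cell cannot be told apart.

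Most of the calcium-binding genes were higher after birth. Of the 9 members, 6 were higher at P5 (66.7%), namely Pvalb, Hpcal4, Vsnl1, Hpca, Ncald and Calb2, 1 was lower (Hpcal1), and 2 did not pass the test (Ncs1 and Calb1). A gene was called when edgeR's quasi-likelihood test gave it a p under 0.05 after Benjamini-Hochberg adjustment over the 16449 genes tested. Over all of those genes 43.4% were called, 22.5% higher and 20.8% lower at P5. At least 2-fold higher at P5 were 5 of the 9 members, against 9.53% of all genes tested, and 0 were called at least 2-fold lower, against 6.39%. The values of the ages did not overlap in 8 of the 9 members, against 56.1% of all genes. All samples were higher at P5 in 6 of these and lower in 2, against 28.5% and 27.6% of all genes. The median log2 fold change of P5 over E18 was 1.05 for the members and -0.005 for all genes. Fold changes are given as P5 over E18, so that a positive value is higher at P5, and CPM values use TMM-normalized library sizes.

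**Figure D1:**
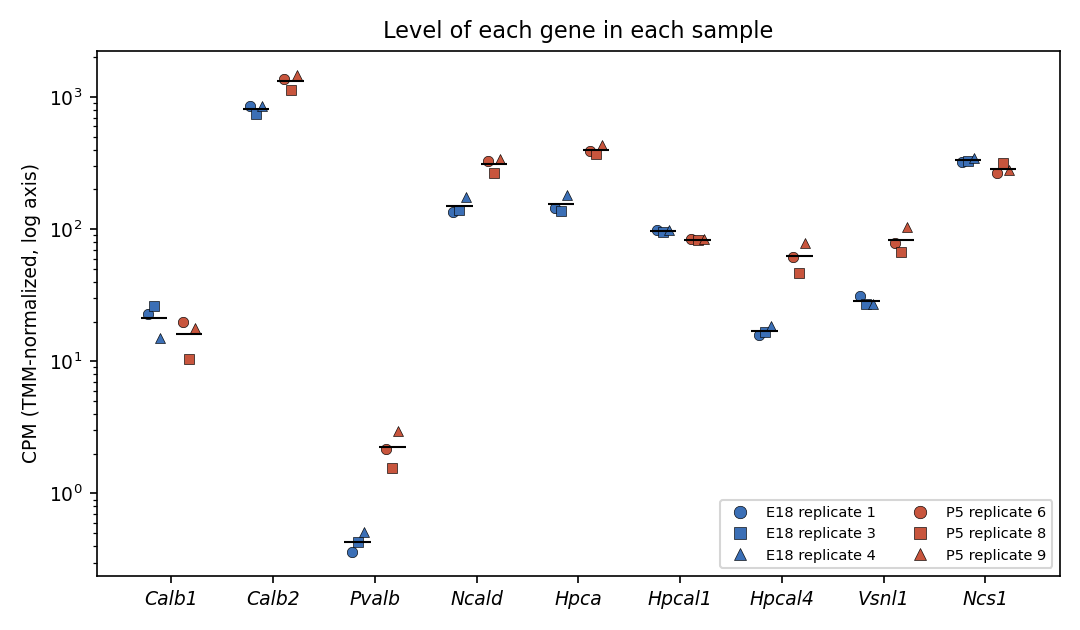
Level of each gene in each sample, in CPM on a log axis, with E18 in blue, P5 in red and a black bar at the mean of each group (n = 3). Symbols tell the replicates of one age apart and pair nothing across ages. Calb1 is the gene in which the ages overlap, and Hpcal1 and Ncs1 lie lower at P5.

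Calb2 encodes calretinin, a buffer with fast calcium binding. It had 854, 748 and 854 CPM in E18 replicates 1, 3 and 4 and 1370, 1137 and 1478 CPM in P5 replicates 6, 8 and 9. All P5 samples lay above all E18 samples. Mean levels of 819 ± 61.3 CPM (E18) and 1328 ± 174 CPM (P5; SD, n = 3 per age) gave a 1.62-fold rise (log2 fold change 0.70, standard error (SE) 0.113, edgeR adjusted p = 0.00192). Its mean level over all samples exceeded that of 99.6% of the genes tested, on the CPM scale, which is not corrected for length. Calb2 (ENSMUSG00000003657.9) lies on the minus strand of chromosome 8 of mm10, from 110137502 to 110168210.

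Pvalb encodes parvalbumin, a buffer with slow binding that is typical of fast-firing neurons. It stood at the other end of the range of levels, with 30, 48 and 46 reads in E18 replicates 1, 3 and 4 and 193, 155 and 280 reads in P5 replicates 6, 8 and 9. In CPM these were 0.362, 0.428 and 0.508 at E18 and 2.18, 1.57 and 2.98 at P5. The groups did not overlap, and the lowest P5 sample was P5 replicate 8. The gene rose 5.17-fold (log2 fold change 2.37, SE 0.306, edgeR adjusted p = 0.000797), the largest change among the members, and 98.0% of all genes tested had a smaller log2 fold change. Its 95% interval, 1.67 to 3.06 on the log2 scale, was also the widest among the members. The gene (ENSMUSG00000005716.16) spans 78191114 to 78206400 on the minus strand of chromosome 15.

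Calb1, the gene of calbindin, had 22.9, 26.1 and 14.9 CPM in E18 replicates 1, 3 and 4 and 19.8, 10.5 and 17.8 CPM in P5 replicates 6, 8 and 9. The ages overlapped, since E18 replicate 4 lay below 2 of the P5 samples. The means were 21.3 ± 5.8 and 16.0 ± 4.89 CPM (SD, n = 3 each). No difference was detected (log2 fold change -0.41, 95% interval -1.01 to 0.19, adjusted p = 0.235 by edgeR). Its E18 samples varied more than those of any other member, with a coefficient of variation of 27.2% against 1.41% to 16.9%. The log2 fold change was -0.62 without E18 replicate 4 (adjusted p = 0.0806 by edgeR), -0.24 without E18 replicate 3 (adjusted p = 0.553 by edgeR) and -0.16 without P5 replicate 8 (adjusted p = 0.565 by edgeR), and the gene was called under none of the 12 alternatives. Calb1 (ENSMUSG00000028222.2) lies on the plus strand of chromosome 4, from 15881264 to 15908064.

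Markers of horizontal cells, which contain calbindin in the mouse, differed among the same samples. The list of 6 genes summed to 136, 233 and 78 CPM in E18 replicates 1, 3 and 4, in the same order as Calb1, and to 61.5, 76.1 and 72.2 CPM in P5 replicates 6, 8 and 9, where the order was another one. Of its 5 tested genes, 3 were lower and 1 was higher at P5, and all members of the list but Sept4 had a lower mean at P5. Lhx1, a defining factor of these cells, had 39, 107 and 4 reads at E18 and 0, 4 and 0 reads at P5, so that it was at 0 in P5 replicates 6 and 9. Its level was at most 0.954 CPM. Most of each E18 sum of the list came from Tfap2b (47.5, 119 and 1.62 CPM) and Onecut2 (50.9, 68.6 and 44.5 CPM), which thus largely set the order. Whether these transcripts came from horizontal cells was not tested. The list of 11 amacrine genes summed to 974 to 1169 CPM at E18 and 1147 to 1240 CPM at P5, of which Pax6 alone had 622 to 751 CPM at E18. Of its 9 tested genes, 1 was higher and 3 were lower at P5. The members of the list did not vary alike, since Slc6a9 had 6.74, 6.95 and 7.68 CPM in E18 replicates 1, 3 and 4 and Gad2 had 9.48, 11.1 and 4.13 CPM. Gad1, the enzyme that makes GABA in inhibitory amacrine cells, had 1589, 3935 and 44 reads in E18 replicates 1, 3 and 4 and 165, 385 and 326 reads in P5 replicates 6, 8 and 9, and Tfap2b, of the horizontal list, had 3937, 13366 and 147 reads and then 90, 153 and 135 reads. E18 replicate 4, the lowest E18 sample in Calb1, was thus also the lowest E18 sample in both. The part of these cells in the level of Calb1 was not tested.

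The ratio of both calbindin relatives does not depend on how the libraries are scaled. On the log2 scale the reads of Calb2 over those of Calb1 stood at 5.22, 4.84 and 5.85 in E18 replicates 1, 3 and 4 and at 6.11, 6.76 and 6.38 in P5 replicates 6, 8 and 9. The ratio was higher in each P5 sample than in each E18 sample. The difference of the means was 1.11 (exact two-sided permutation test, p = 0.1), and 0.1 is the smallest p that 3 samples against 3 can give. It ranged from 0.88 to 1.39 over the omissions of single samples. The ratio uses the same reads as the tests of Calb2 and Calb1 above, so it is no separate support for them.

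Of the 6 sensors, Hpca, Ncald, Hpcal4 and Vsnl1 rose, and Hpcal1 and Ncs1 did not. The fold changes of those that rose, from 2.07 to 3.65, were each above the 1.62 of Calb2. Hippocalcin, the product of Hpca, takes part in calcium-dependent slow potassium currents and in receptor endocytosis. Hpca had 145, 137 and 180 CPM in the E18 samples (replicates 1, 3 and 4) and 393, 373 and 432 CPM in the P5 samples (replicates 6, 8 and 9). Its groups stood well apart and its P5 samples lay close together, with means of 154 ± 23.1 and 399 ± 29.9 CPM (SD, n = 3 each). The rise was 2.59-fold (log2 fold change 1.37, SE 0.121, edgeR adjusted p = 0.000199). Hpca (ENSMUSG00000028785.13) spans 129111570 to 129122036 on the minus strand of chromosome 4. Tmem54, which overlaps it on the opposite strand, had at most 0.210 CPM in any sample.

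Neurocalcin delta, the product of Ncald, is a sensor that regulates guanylate cyclases and endocytosis. Ncald had 136, 140 and 175 CPM at E18 and 328, 268 and 339 CPM at P5, in the same order of replicates. Without overlap, it rose 2.07-fold (log2 fold change 1.05, SE 0.131, edgeR adjusted p = 0.000691). The gene (ENSMUSG00000051359.15) covers 37366175 to 37792570 on the minus strand of chromosome 15, and the overlapping genes of the table, Gm15941 and 4930447A16Rik, had at most 0.298 CPM in any sample.

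Visinin-like protein 1, encoded by Vsnl1, modulates cyclic nucleotide signalling and the surface level of receptors. Vsnl1 had 31.1, 27.3 and 27.3 CPM at E18 and 78.9, 66.9 and 103 CPM at P5. All P5 samples were higher, although they spread more widely (coefficient of variation of 22.2% against 7.79%, n = 3 each). The rise was 2.91-fold (log2 fold change 1.54, SE 0.157, edgeR adjusted p = 0.000334). Vsnl1 (ENSMUSG00000054459.8) lies on the minus strand of chromosome 12, from 11325242 to 11436613.

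Hpcal4, the gene of a brain-enriched relative of hippocalcin, had the largest rise of the sensors. It had 1317, 1889 and 1666 reads in E18 replicates 1, 3 and 4 and 5420, 4615 and 7402 reads in P5 replicates 6, 8 and 9. The ages did not overlap. The means were 17.0 ± 1.27 and 62.2 ± 15.9 CPM (SD, n = 3 each), and the rise was 3.65-fold (log2 fold change 1.87, SE 0.179, edgeR adjusted p = 0.000262). Of all genes tested, 96.5% had a smaller log2 fold change. Hpcal4 (ENSMUSG00000046093.9) spans 123183227 to 123194701 on the plus strand of chromosome 4.

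Hpcal1 and Ncs1, sensors found in many tissues as well as in neurons, did not share in the rise. Hpcal1 encodes a close relative of hippocalcin. It had 98.7, 96.0 and 97.8 CPM at E18 and 84.0, 82.2 and 83.9 CPM at P5, the narrowest spread of the members. The groups were close and did not overlap. The log2 fold change was -0.23 (SE 0.0781, edgeR adjusted p = 0.0446). This call was lost in 7 of the 12 alternatives, with adjusted p-values of 0.145, 0.118, 0.123, 0.0873 and 0.0744 by edgeR without E18 replicates 1, 3 and 4 and P5 replicates 6 and 9 in turn, 0.0692 without a filter on low counts and 0.0541 in edgeR's exact test, while the log2 fold change stayed between -0.24 and -0.20. Hpcal1 (ENSMUSG00000071379.2) spans 17690856 to 17791933 on the plus strand of chromosome 12.

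Ncs1 encodes neuronal calcium sensor 1, which activates a phosphatidylinositol 4-kinase and modulates calcium channels and transmitter release. It had 325, 330 and 347 CPM at E18 and 265, 315 and 280 CPM at P5. The P5 samples lay below the E18 samples, with P5 replicate 8 nearest to them. The difference did not pass the threshold (log2 fold change -0.22, 95% interval -0.43 to -0.01, which is not adjusted for the number of genes, adjusted p = 0.0792 by edgeR). It passed without P5 replicate 8 (log2 fold change -0.28, adjusted p = 0.0185 by edgeR) and with upper-quartile scaling (adjusted p = 0.0497 by edgeR). Ncs1 (ENSMUSG00000062661.6) lies on the plus strand of chromosome 2, from 31245823 to 31295989.

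**Figure D2:**
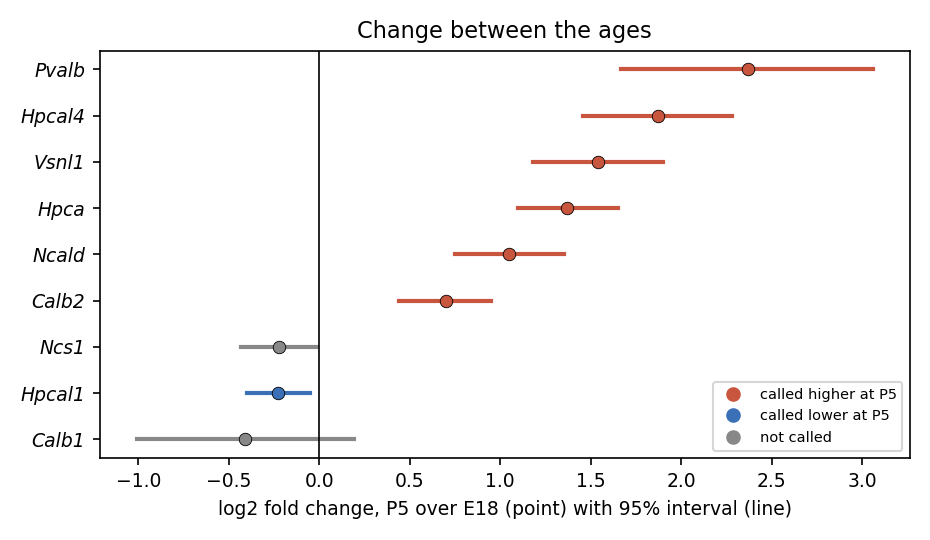
Log2 fold change of P5 over E18 for each gene (point) with its 95% interval (line) from the edgeR fit on 3 samples per age, coloured by the call at an adjusted p of 0.05. Pvalb stands highest at 2.37, Calb2 is the lowest of the 6 genes that rose at 0.70, and Calb1, Hpcal1 and Ncs1 lie below 0.

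The contrast between Hpca and Hpcal1 can be read within each library. It uses the same reads in which Hpca was called higher and Hpcal1 lower, so it is a description and no separate support. The log2 ratio of Hpca to Hpcal1 reads was 0.56, 0.51 and 0.88 in E18 replicates 1, 3 and 4 and 2.22, 2.18 and 2.36 in P5 replicates 6, 8 and 9. No E18 sample came near the P5 samples. The means of 0.65 ± 0.203 and 2.26 ± 0.0945 (SD, n = 3 each) differed by 1.61 (exact two-sided permutation test, p = 0.1, the smallest p of this design), and the difference was 1.54 to 1.72 over the omissions of single samples.

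Promoter sequence, from RefSeq on GRCm38.p6 (the assembly of mm10), was found for 6 of the 9 genes, Pvalb, Hpca, Hpcal1, Hpcal4, Vsnl1 and Ncs1. The 250 bases before the start are shown for Pvalb, which rose most, and for the related sensors Hpca and Hpcal1, of which Hpca rose and Hpcal1 did not. The Hpca window is that of the start nearest to an annotated transcript among 3. Capitals mark matches, on either strand, to the letters CCGGAA (the core bound by ETS factors) or GGGCGG (a GC box). TATAAA and TGACG (part of the element bound by CREB) were also searched, and no match overlapped another. The strand read is minus for Pvalb at chr15:78206401-78206650 and Hpca at chr4:129121304-129121553, and plus for Hpcal1 at chr12:17690559-17690808.
Pvalb: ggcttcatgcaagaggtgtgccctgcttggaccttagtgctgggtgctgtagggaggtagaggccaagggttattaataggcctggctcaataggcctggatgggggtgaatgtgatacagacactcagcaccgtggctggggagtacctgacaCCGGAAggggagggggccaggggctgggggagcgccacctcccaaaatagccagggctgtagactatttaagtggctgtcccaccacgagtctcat
Hpca: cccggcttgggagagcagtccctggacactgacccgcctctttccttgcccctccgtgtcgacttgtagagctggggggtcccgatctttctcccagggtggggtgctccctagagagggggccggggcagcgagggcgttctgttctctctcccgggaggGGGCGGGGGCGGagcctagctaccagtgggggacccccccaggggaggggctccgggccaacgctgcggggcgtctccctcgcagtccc
Hpcal1: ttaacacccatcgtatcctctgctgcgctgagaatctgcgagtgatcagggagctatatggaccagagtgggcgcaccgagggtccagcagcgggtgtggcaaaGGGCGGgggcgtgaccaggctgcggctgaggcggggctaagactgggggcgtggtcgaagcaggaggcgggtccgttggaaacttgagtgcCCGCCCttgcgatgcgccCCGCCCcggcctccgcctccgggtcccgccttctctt

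The Pvalb window held 1 match to CCGGAA, 96 to 91 bases before the start, and none to the GC box. Windows of Hpca and Hpcal1 held 2 and 3 GC boxes, so that the gene that rose and the one that did not both had them. Hpcal4, Vsnl1 and Ncs1 had 2, 1 and 3 GC boxes, in windows of which 250, 35 and 100 of the 250 bases lie in an annotated exon, so that they are not wholly upstream sequence, and in none of the 6 windows was TATAAA or TGACG found. Of all 32851 promoters of the same length, 12% held CCGGAA, 32.7% GGGCGG, 12.4% TATAAA and 17.8% TGACG. A match is a run of letters and not a known binding site.

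Levels of different genes were compared per length, as CPM per kilobase of the longest transcript in the GENCODE annotation (RPKM). Calb2 was the most abundant member at both ages, with 572 ± 42.8 RPKM before birth and 928 ± 122 RPKM after it (SD, n = 3 per age). At E18 it was followed by Hpca (74.0 to 97.6 RPKM), Ncs1 (69.8 to 74.7 RPKM), Hpcal1 (62.9 to 64.7 RPKM), Ncald (36.4 to 47.0 RPKM) and Vsnl1 (14.3 to 16.3 RPKM). Calb1 (3.52 to 6.19 RPKM), Hpcal4 (3.22 to 3.73 RPKM) and Pvalb (0.370 to 0.520 RPKM) closed the order. Within E18, the samples of Hpca and Ncs1 overlapped, as did those of Calb1 and Hpcal4, and the other neighbours were apart. At P5 the order was Calb2, Hpca (202 to 234 RPKM), Ncald (71.9 to 90.9 RPKM), Ncs1 (57.0 to 67.6 RPKM), Hpcal1 (53.9 to 55.1 RPKM), Vsnl1 (35.2 to 54.2 RPKM), Hpcal4 (9.51 to 16.0 RPKM), Calb1 (2.49 to 4.69 RPKM) and Pvalb (1.61 to 3.05 RPKM). Hpcal1 and Vsnl1 overlapped there, and so did Calb1 and Pvalb. The order depends on the transcript length taken, since with the mean length over transcripts Hpcal4 (9.02 RPKM at E18) stood above Calb1 (5.05 RPKM) and Hpcal1 (87.7 RPKM) above Ncs1 (71.8 RPKM) at E18.

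Summed over the 9 genes, the level was 872, 793 and 902 RPKM in E18 replicates 1, 3 and 4 and 1431, 1239 and 1550 RPKM in P5 replicates 6, 8 and 9. Calb2 made up 66.9% ± 1.39 of the sum in E18 samples and 65.9% ± 1.52 in P5 samples (SD, n = 3 per age). The make-up of the 6 sensors was different at each age. Hpca took 29.2%, 28.1% and 32.4% of the summed RPKM of the sensors in the E18 samples and 45.6%, 45.9% and 45.8% in the P5 samples. Ncs1 took 25.9% ± 1.09 in E18 and 13.1% ± 1.95 in P5 samples, and Hpcal1 took 23.1% ± 1.57 and 11.6% ± 0.748 (SD, n = 3 each). Shares of one sum depend on each other, so a fall in share is not a fall in level.

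**Figure D3:**
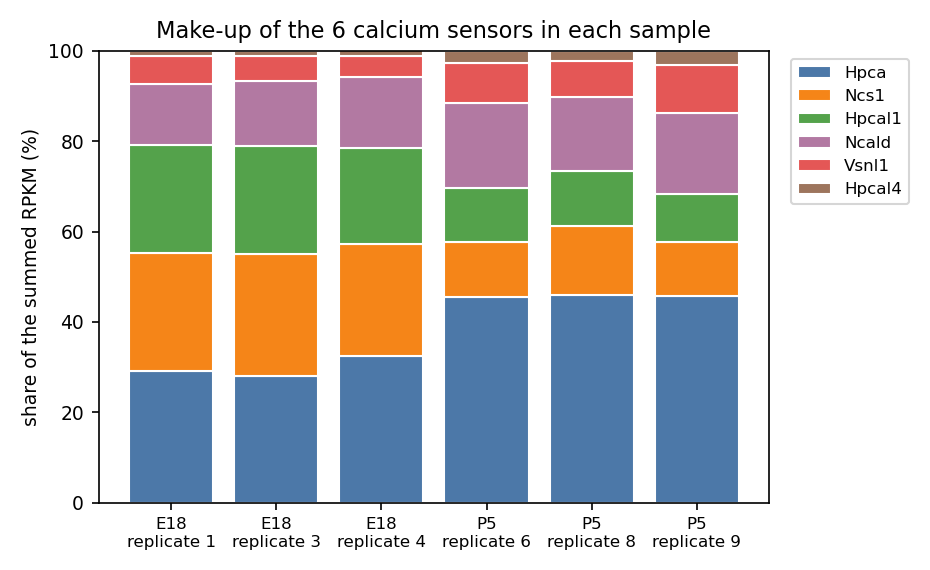
Share of each of the 6 sensors in their summed RPKM (percent, bars stacked to 100) in each of the 6 samples. The share of Hpca is 28.1% to 32.4% at E18 and 45.6% to 45.9% at P5, while the shares of Ncs1 and Hpcal1 are lower in every P5 sample.

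The P5 samples kept one order across the genes that rose. P5 replicate 8 was the lowest P5 sample in 6 of these 6 genes and P5 replicate 9 the highest in 6 of 6. The same order was common among the 3709 genes called higher at P5, where replicate 8 was lowest in 65.5% and replicate 9 was highest in 62.7%. Among the 3426 genes called lower at P5 the order was the reverse. There replicate 8 was the highest P5 sample in 62.7% and replicate 9 the lowest in 62.3%. At E18, replicate 4 was the highest E18 sample in 5 of the 6 genes and in 56.0% of all genes called higher at P5. Thy1, the surface protein used for the purification, was ordered alike, with 212, 217 and 312 CPM in E18 replicates 1, 3 and 4 and 500, 469 and 690 CPM in P5 replicates 6, 8 and 9. The part of the purification or of a difference in stage between samples was not tested. Each of the 6 rises was called without any one of the samples.

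Other calcium-binding genes, IQ proteins that bind calmodulin and partners of the members were described from 5 lists. Together they held 45 genes of the table, 42 of them tested. Of the 42, 18 were higher and 2 were lower at P5, against 22.5% and 20.8% of all genes tested. These shares of all genes also stand beside the count of each list below. The recoverin, GCAP and KChIP list holds further relatives of the sensors, and 4 of its 5 tested genes were higher and 0 were lower, with a median log2 fold change of 1.04. KChIPs are subunits that control A-type potassium channels. Kcnip4 had 12.2, 11.5 and 13.3 CPM at E18 and 77.1, 62.8 and 100 CPM at P5, a 6.50-fold rise (log2 fold change 2.70, adjusted p = 6.76e-05 by edgeR). Kcnip1 rose 3.29-fold (log2 fold change 1.72, adjusted p = 0.000141 by edgeR). Kcnip2 rose 2.06-fold, a call lost without E18 replicate 1, E18 replicate 3, P5 replicate 6 or P5 replicate 9 (adjusted p = 0.0525 to 0.0909 by edgeR). The list's count of higher genes was 2 without E18 replicate 1, P5 replicate 6 or P5 replicate 9. Recoverin (Rcvrn), the photoreceptor member, was near absent, with 0 to 6 reads per sample.

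Among 8 tested calmodulins and CaBPs, 4 were higher and 0 lower (median 0.52). Calm2, which encodes calmodulin, the general calcium sensor of the cell, had 1465, 1583 and 1721 CPM at E18 and 2473, 2275 and 2285 CPM at P5. Its ages did not overlap, and it rose 1.47-fold (adjusted p = 0.00168 by edgeR). Calm3, which encodes the same protein, rose 1.43-fold (adjusted p = 0.00514 by edgeR), and Caln1 rose 1.43-fold (adjusted p = 0.00610 by edgeR). Of the 3 IQ proteins that bind calmodulin, 2 were higher and 0 lower. Pcp4 had 66.4, 52.4 and 97.0 CPM at E18 and 368, 250 and 347 CPM at P5, a 4.48-fold rise (adjusted p = 0.000378 by edgeR). Nrgn (neurogranin) rose 2.33-fold (adjusted p = 0.0134 by edgeR), a call lost without E18 replicate 3 (adjusted p = 0.0543 by edgeR).

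In the list of other EF-hand buffers and sensors, 6 of 17 genes were higher and 0 lower, with a median of 0.44. Ocm encodes oncomodulin, a relative of parvalbumin known to promote axon growth of RGCs when given to the eye. It had 9, 3 and 4 reads at E18 and 36, 9 and 35 reads at P5, so the ages overlapped in P5 replicate 8. The fitted log2 fold change was 2.30 (adjusted p = 0.0268 by edgeR), and the call was lost without E18 replicate 3 or 4 or P5 replicate 6 or 9 (adjusted p = 0.0734 to 0.101 by edgeR). Necab1 and Chp2 rose 2.4-fold and 2.41-fold from means of 1.41 and 0.269 CPM (SD of 0.664 and 0.0637, n = 3 each), and their calls were lost without P5 replicate 9 (adjusted p = 0.0722 by edgeR) and without E18 replicate 3 (adjusted p = 0.0710 by edgeR), respectively. Necab2 rose 1.8-fold, from a mean of 43.2 to 78 CPM (adjusted p = 0.0078 by edgeR), and was called under all 12 alternatives. Scgn and Cib2 rose 2.07-fold and 1.29-fold, and their calls were lost in 7 of 11 and 6 of 12 alternatives. Without E18 replicate 3 the list's count of higher genes was 2.

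Proteins that members are known to bind or regulate formed the last list, in which 2 of 9 genes were higher and 2 lower (median -0.10). These counts lie near the shares of all genes tested, 22.5% higher and 20.8% lower. Itpr1, the inositol trisphosphate receptor that releases calcium from stores, had 11.9, 10.4 and 9.55 CPM at E18 and 61.7, 36.4 and 90.5 CPM at P5, a 5.91-fold rise (log2 fold change 2.56, adjusted p = 0.000477 by edgeR). Impa1, an inositol monophosphatase that calbindin binds, rose 1.46-fold (adjusted p = 0.00350 by edgeR). Chrna4, a nicotinic receptor subunit, fell by 0.43 on the log2 scale (adjusted p = 0.0204 by edgeR), a call lost without E18 replicate 3 (adjusted p = 0.0898 by edgeR) or P5 replicate 6 (adjusted p = 0.0771 by edgeR). Plcd1, a phospholipase C, fell by 0.49 (adjusted p = 0.0124 by edgeR).

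**Figure D4:**
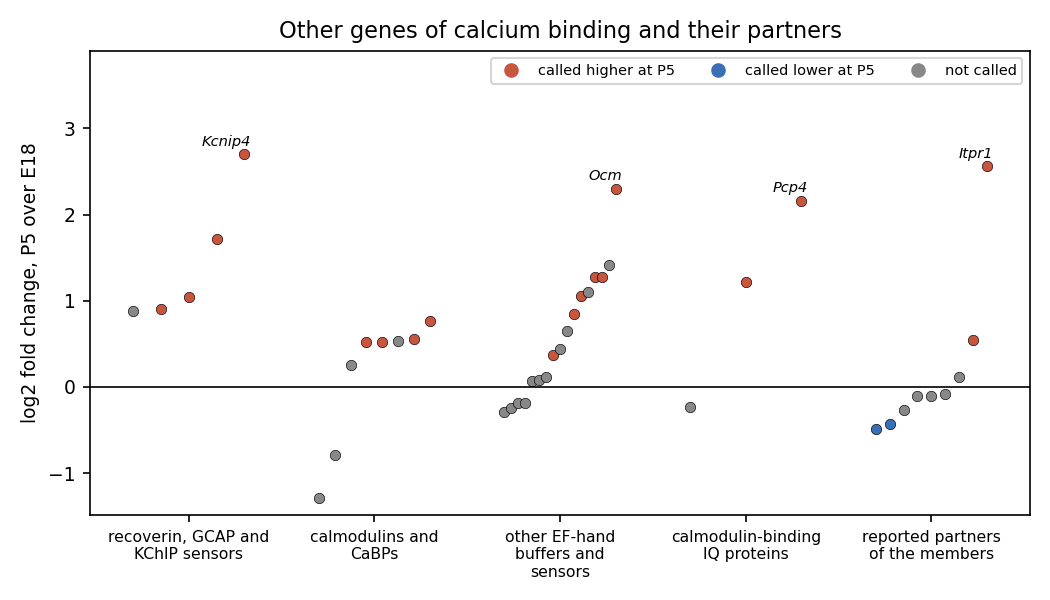
Log2 fold change of P5 over E18 for the tested genes of each list, ordered by value within a list and coloured by the call (edgeR, 3 samples per age). Of the 42 genes, 18 were called higher and 2 lower, and the labelled genes are those called with a change of at least 2 in size.

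Genes with the most similar profile were sought among the 9724 other genes whose mean reached 10 CPM (9725 for Pvalb), as the smallest root mean square difference of mean-centred log2 CPM over the 6 samples. For Pvalb the nearest was Camkv (0.105), which encodes a kinase-like vesicle protein. Hpcal4 had Rgs7bp (0.0932) and Cntnap3 (0.1), Vsnl1 had Cdh8 (0.0669) and Col25a1 (0.0784), and Hpca had Prrt2 (0.0376) and Col6a2 (0.0499). The nearest to Ncald were Napb (0.0449) and Tmem47 (0.0450), and those to Calb2 were Abhd6 (0.0337) and Lrrfip1 (0.0443). Hpcal1 was closest to Gnai2 (0.0192) and Tmem161a (0.0195), and Ncs1 to Oxa1l (0.0207) and Mcrs1 (0.0254). Calb1 had no close match, with 0.167 for Man1c1 and 0.203 for Vps13c. The age of the samples dominates such a measure, and nothing about shared control was tested.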

How the data were processed

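RNA of RGCs from 3 E18 and 3 P5 samples was sequenced. The labels name polyA RNA, whereas the protocol names ribosomal depletion. Alignment by the authors used STAR and mm10, and the deposited raw counts, which entered all tests here, came from HT-seq with RefSeq gene models. Strand setting and treatment of reads on several genes are not given in the sources used here. The E18 column that carries the numbers 1, 2 and 5 was taken as E18 replicate 1. It may pool several preparations, in which case that replicate and the E18 SD do not stand for single ones. The authors also deposited normalized counts (a signal scaled for library size), log2 fold changes, p-values and a rank, and none of these were used. A chi-square test over genes separated all replicates (26.0 to 121 per degree of freedom).

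Genes passing edgeR's expression filter (16449, 2411 of the table having no count) were tested for P5 against E18 with edgeR 4.0.16 in R 4.3.3 (TMM, quasi-likelihood, Benjamini-Hochberg, threshold 0.05) and checked on simulated data. Standard errors and 95% intervals belong to the fit. Alternatives were DESeq2 1.42.0, other scalings, filters and tests, and omission of each sample. Lengths and coordinates came from GENCODE M21. Members and lists were chosen with earlier results of these data known. Named are the members, up to 3 called genes per list and direction, and the 2 nearest profiles. Caln1, Necab2, Scgn, Cib2 and the singly named marker genes were added after their values were seen. Some genes that this rule names are not reported here.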

Additional observations from a re-analysis of the deposited data

How the results depend on the processing

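Over 9 members and 12 alternatives, 99 of 108 values kept their direction and their side of the threshold, 7 lost a call (Hpcal1) and 2 gained one (Ncs1), and 0 reversed. The 6 members that rose were called under all 12 alternatives. The count of members lower at P5 was 2 with upper-quartile scaling, 0 without a filter on low counts and 0 in edgeR's exact test, and it ranged from 0 to 2 when each sample was left out. With samples left out in turn, all genes called ranged from 4575 (without E18 replicate 3) to 8796 (without P5 replicate 8), the recoverin, GCAP and KChIP genes higher at P5 from 2 to 4, the calmodulins and CaBPs lower from 0 to 1, the other EF-hand genes higher from 2 to 6 and lower from 0 to 2, the IQ proteins higher from 1 to 2 and the partners lower from 1 to 2. The exact test called 1 gene lower among calmodulins and CaBPs, and a minimum of 1 CPM in 3 samples left 3 other EF-hand genes higher, since fewer genes were tested. The cause of the other changes was not tested. The shift of the median log2 fold change was at most 0.018 under any alternative. No paired analysis was possible because the ages share no replicate number. Pvalb, Ocm, Scgn and Chp2 had few reads, and there were 3 samples per age.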
